A study of Mus musculus with 21 samples.

Results

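The 31 genes described here carry cholesterol through a cell, from synthesis to storage. They were chosen by name: 18 enzymes of synthesis, 5 proteins of sterol sensing, the uptake receptor Lrp1, 3 proteins of lysosomal release, and 4 genes of transfer, storage and oxysterol production (Stard4, Soat1, Plin2 and Ch25h). All 31 were found among the 57180 genes of the count table, and all 31 were among the 18867 genes that passed the filter on low counts. The rule that names them uses no measured value, but the genes were chosen with earlier results of these data known. The filter keeps a gene that is high enough in the libraries of a single group. 24 of the 31 genes were above 0 counts in every library.

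The study profiled by RNA-seq 3 kinds of cells sorted from the brains of adult mice, in 21 libraries. Transplanted microglia (Osb-GFP donors, abbreviated MG) and microglia derived from transplanted monocytes (also Osb-GFP, abbreviated MLC) were compared with the microglia of mice without a transplant (NoTx; genotype CX3CR1-CreER+/-; CSF1R fl/fl). Each kind was taken after saline, as 3 libraries of MG, 3 of MLC and 2 of NoTx, or on day 5 following a kainic acid seizure, as 4, 6 and 3 libraries. CX3CR1-CreER places an inducible Cre recombinase under the control of Cx3cr1, which is expressed in microglia and related macrophages, and CSF1R fl/fl is a floxed allele of the receptor that microglia need to survive. All saline libraries carried batch 2 in the labels and all seizure libraries batch 1, so the effect of the seizure and that of the batch cannot be told apart. Genotype and transplantation cannot be told apart either, because all NoTx cells had one genotype and all transplanted cells the other. The samples are called biological replicates, and nothing says whether each came from its own mouse. Seizure library names end in the codes F1, M1, F2 or M2, which recur across the cell kinds and do not follow the replicate numbers. The names of MLC seizure replicates 3 and 6 contain 11b and otherwise repeat the names of replicates 2 and 4, so these libraries may share mice.

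Cholesterol is built from acetyl-CoA by way of mevalonate and squalene, or taken up as lipoproteins and released in lysosomes. When sterols are scarce in the endoplasmic reticulum, SCAP escorts the SREBP transcription factors to the Golgi, and INSIG proteins hold the pair back when sterols are plentiful. Surplus cholesterol is esterified for storage in lipid droplets, oxidised to oxysterols or exported. Microglia take up cholesterol-rich debris such as myelin, and the adult brain makes its own cholesterol because lipoproteins hardly cross the blood-brain barrier.

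Libraries totalled 36528863 to 50316223 counts after saline and 6571262 to 73841998 after seizure. At equal depth, MG seizure replicates 3 and 4 and MLC seizure replicate 5 had the fewest genes with at least 10 counts, 8926, 9657 and 9489. Levels below are CPM, counts brought to a common library total after TMM, a correction for composition, and they cannot be compared between genes because they are not per length. All 10 markers of microglia and macrophages were detected in every group. One of the 10, the microglial receptor P2ry12, spanned 11160 to 21860 CPM in MG and NoTx libraries and 1634 to 2584 CPM in MLC libraries. The 10 did not all go the same way. Against MG, 3 of the 10 had a positive fitted log2 fold change in MLC after saline and 2 after seizure. Against NoTx, 5 did after saline and 2 after seizure. The summed level of 5 markers of monocyte-derived brain macrophages (Ms4a7, Mrc1, Cybb, Clec12a and Ccr2) lay between 4839 and 11490 CPM in MLC libraries, between 30.6 and 91.0 CPM in MG libraries, and between 43.5 and 762 CPM in NoTx libraries. In each comparison of MLC with MG or NoTx, 4 of the 5 had a positive fitted log2 fold change in MLC and 1 a negative one.

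Of the storage and oxysterol genes, 3 of 4 were called in at least 1 comparison of MLC with microglia, and Stard4 in none. Those comparisons called 1.58% and 5.88% of all tested genes against MG (saline, seizure), and 1.26% and 6.16% against NoTx. Soat1, which esterifies cholesterol for storage, was higher in MLC than in MG after saline, and higher in MLC than in NoTx after seizure. Plin2, which coats lipid droplets, and Ch25h, which converts cholesterol to 25-hydroxycholesterol, were higher in MLC than in MG after seizure, and Plin2 also than in NoTx after seizure. Calls among the 31 genes were few, and for each edgeR comparison the share of all tested genes called is given beside the count among the 31. The 18 enzymes of synthesis gave no call against MG in either condition, which is close to the share called over all tested genes (1.58% and 5.88%). A call is an adjusted p below 0.05 in edgeR's quasi-likelihood test, adjusted by Benjamini and Hochberg over all tested genes of a comparison. In these pools of sorted cells, fewer cells of a type and less RNA per cell cannot be told apart.

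Soat1 (ENSMUSG00000026600) stood at 234, 207 and 217 CPM in MG saline replicates 1 to 3, a mean of 219 ± 13.7 (SD, n = 3). The 3 MLC saline libraries held 538, 489.6 and 458.5 CPM, a mean of 495.5 ± 40.2 (SD, n = 3). The 2 NoTx saline libraries held 209 and 234 CPM. Every MLC saline library was thus above every MG and NoTx saline library. In the edgeR fit, Soat1 was 2.26-fold higher in MLC than in MG after saline (log2 fold change 1.18, SE 0.28, adjusted p = 0.0327). Soat1 was the 1 gene of the 31 called in that comparison, where 1.58% of all tested genes were called. The call rests on few libraries: adjusted p was 0.0722, 0.128 and 0.112 without MG saline replicate 1, 2 or 3, 0.103 and 0.0697 without MLC saline replicate 1 or 2, and 0.0444 without MLC saline replicate 3. It was also lost with no low-count filter (adjusted p = 0.0645) and with a correction for GC content (0.112), while the log2 fold change stayed between 1.03 and 1.26 in the 13 alternatives. Part of the counts of Soat1 and Plin2 (10 of 21 libraries each) and of Ch25h (13 of 21) were fractional estimates.

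After seizure, Soat1 spanned 175 to 357 CPM in the 4 MG libraries (175, 226, 357 and 312 in replicates 1 to 4). The 6 MLC libraries ranged from 326 to 553.5 CPM, with a mean of 433 ± 88.1 (SD, n = 6), and the 3 NoTx libraries held 206.5, 180.4 and 149 CPM. MLC and MG libraries overlapped, and MLC libraries were all above NoTx libraries. Soat1 was 2.43-fold higher in MLC than in NoTx after seizure (log2 fold change 1.28, SE 0.26, edgeR adjusted p = 0.00308), and the call held in all 19 alternatives, with adjusted p of at most 0.0291. The difference from MG after seizure missed the limit (adjusted p = 0.0726), as did that from NoTx after saline (0.0986), and both are given here because of the values seen. DESeq2, limma-voom and RLE scaling called Soat1 in both. Against MG after seizure it was also called without MG seizure replicate 3, without MLC seizure replicate 5 and without the 3 libraries with the fewest genes. No other alternative called it in these 2 comparisons. The MLC libraries take part in both comparisons, so these are not independent.

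Plin2 (ENSMUSG00000028494) stood at 59.0, 72.0 and 57.6 CPM in MG saline libraries and at 152, 191 and 152 CPM in MLC saline libraries. NoTx saline libraries held 74.6 and 96.0 CPM. The groups did not overlap after saline, but the edgeR test gave no call against MG (log2 fold change 1.39, SE 0.42, adjusted p = 0.142). It was called there by DESeq2, by limma-voom, with only the compared groups, with the replicate block and with the GC-content correction, and in no other alternative. After seizure, MG libraries held 63.4, 66.9, 85.3 and 43.0 CPM, and NoTx libraries 53.2, 101 and 57.9 CPM. MLC seizure replicates 1 to 6 held 246, 222, 247, 174, 51.8 and 152 CPM, a mean of 182 ± 74.7 (SD, n = 6). MLC replicate 5, one of the libraries with few genes, sat among the MG and NoTx values, and the other 5 were above all of them.

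Plin2 was 2.82-fold higher in MLC than in MG after seizure (log2 fold change 1.496, SE 0.35, edgeR adjusted p = 0.0106). This call held in all 20 alternatives, with adjusted p of at most 0.0404 and log2 fold changes from 1.23 to 1.81. Plin2 and Ch25h were the 2 genes of the 31 called in MLC against MG after seizure, where 5.88% of all tested genes were called. Against NoTx after seizure, Plin2 was 2.58-fold higher (log2 fold change 1.37, SE 0.39, edgeR adjusted p = 0.0369). That call did not survive leaving out MLC seizure replicates 1, 2, 3 or 4 (adjusted p = 0.0659, 0.0534, 0.0562 and 0.0506) or NoTx seizure replicates 1 or 3 (0.125 and 0.145). It was lost as well when only the compared groups were fitted (0.105), or when the 2 libraries with 11b in their names were left out (0.0791).

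Ch25h (ENSMUSG00000050370) was low in both kinds of microglia and higher in MLC. MG saline libraries held 4.17, 6.02 and 1.58 CPM, and NoTx saline libraries 2.86 and 1.53 CPM. MLC saline libraries held 61.5, 48.6 and 54.9 CPM, a mean of 55.0 ± 6.45 (SD, n = 3). No MLC library overlapped the others, yet the fit of this low and uneven gene had a wide error and gave no call against MG after saline (log2 fold change 3.81, SE 1.44, edgeR adjusted p = 0.356) or against NoTx (4.64, SE 1.79, adjusted p = 0.407). Limma-voom and the fit of only the compared groups called it in both comparisons, and DESeq2 called it against NoTx. After seizure, MG libraries held 4.03, 0, 0.0531 and 0.191 CPM, and NoTx libraries 0.207, 0.0608 and 5.96 CPM. The 6 MLC seizure libraries ranged from 17.1 to 71.1 CPM, with a mean of 35.3 ± 21.97 (SD, n = 6), again all above both other groups.

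The fit placed Ch25h higher in MLC than in MG after seizure (log2 fold change 5.10, SE 1.31, edgeR adjusted p = 0.022), and not past the limit against NoTx (4.10, SE 1.40, adjusted p = 0.0844). Without MG seizure replicate 1, the library with the highest MG value, the log2 fold change rose to 8.45. The call against MG was lost without MG seizure replicate 3 (adjusted p = 0.056) or 4 (0.0567), with no low-count filter (0.0546), without the 2 libraries with 11b in their names (0.0511), without the 3 libraries with the fewest genes (0.147), and with the replicate number as a block (0.0625). Against NoTx, Ch25h was called by DESeq2, by limma-voom, without NoTx seizure replicate 3 and without the 3 libraries with the fewest genes, and in no other alternative. Exons of Ch25h overlap the RNA Gm26902 on the opposite strand, and no source used here gives the strand of counting, so reads of the pair may not be told apart.

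**Figure D1:**
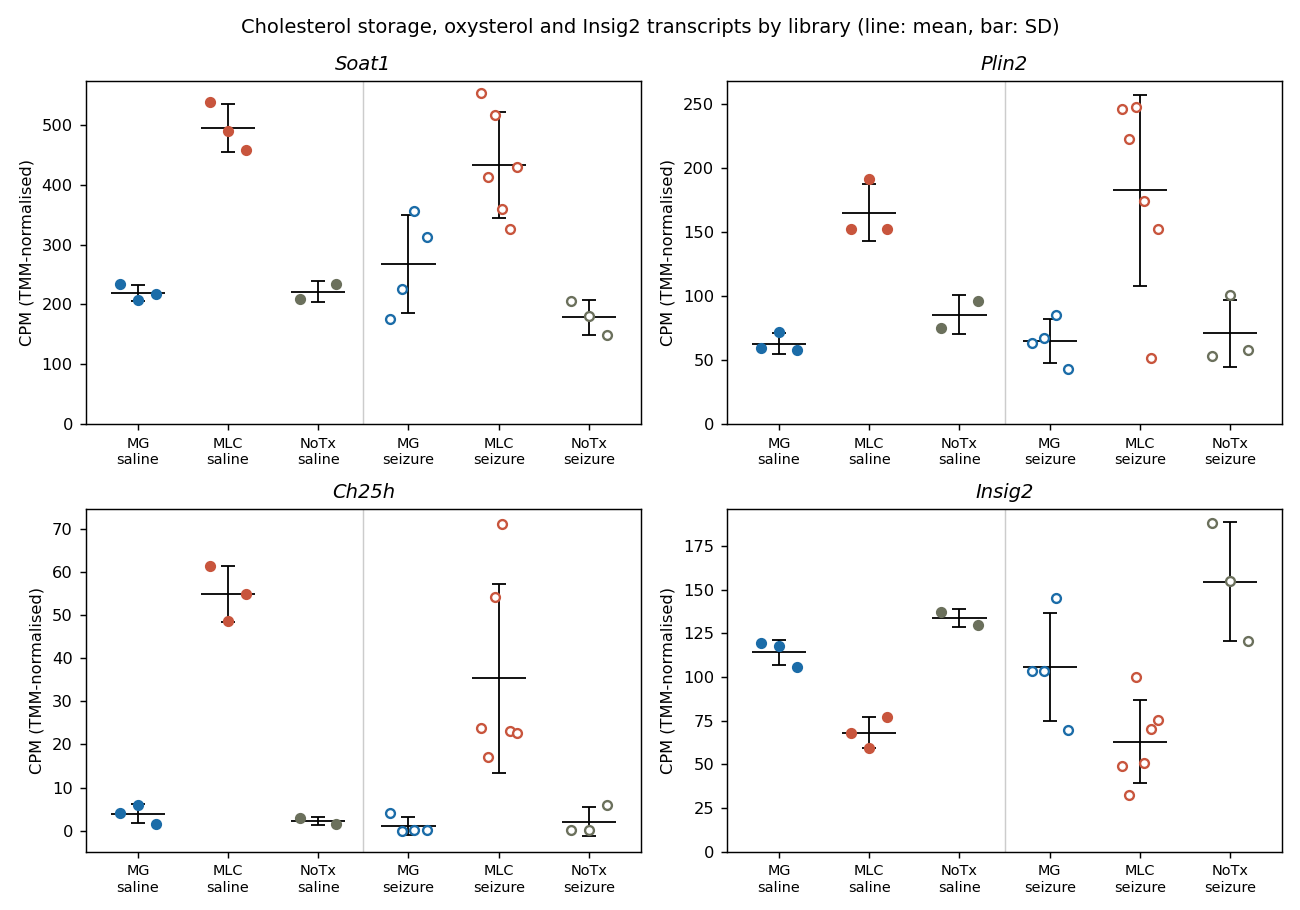
Levels in CPM (vertical axes) of Soat1, Plin2, Ch25h and Insig2 in each library, by the 6 groups (horizontal axis); filled points are saline, open points seizure, the line is the group mean and the bar its SD. Soat1, Plin2 and Ch25h are high in MLC, with 1 MLC seizure library at 51.8 CPM of Plin2, and Insig2 is low in MLC.

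The 3 higher genes and Stard4, a carrier of cholesterol between membranes, were summed to describe the group. This sum follows from the levels given above and is no separate result. Soat1 was most of it, with a mean of 495.5 of 719.5 CPM in MLC saline and 219 of 294 CPM in MG saline libraries. Their summed level was 284 to 307 CPM in MG saline, 672 to 754 CPM in MLC saline and 292 to 342 CPM in NoTx saline libraries. After seizure it was 251 to 442 CPM in MG, 401 to 832 CPM in MLC and 221 to 282.5 CPM in NoTx libraries. MLC and MG overlapped after seizure, through MLC seizure replicate 5 and MG seizure replicate 3, both among the libraries with the fewest genes. Stard4 itself was low, with a highest value of 11.6 CPM and 4 libraries at 0, and was not called (MLC against MG after saline, log2 fold change -0.97, SE 2.13, edgeR adjusted p = 1).

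Start regions are shown for Soat1, Plin2 and Ch25h, because the calls against MG fell on them, and for Hmgcs1, an enzyme of synthesis, because it holds a sterol response element. They are the 250 bases before the start in RefSeq, mouse build GRCm38.p6, written 5′ to 3′ along the gene. Capitals mark a CCAAT box (CCAAT on either strand, seen as ATTGG on the other) or the sterol response element TCACNCCAC, a site known to be read by SREBP.
Soat1, chr1:156474329-156474578, minus strand: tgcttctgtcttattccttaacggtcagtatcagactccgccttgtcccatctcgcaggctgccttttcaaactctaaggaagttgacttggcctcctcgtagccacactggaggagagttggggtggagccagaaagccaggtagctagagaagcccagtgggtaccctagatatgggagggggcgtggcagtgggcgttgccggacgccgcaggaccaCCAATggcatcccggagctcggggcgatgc
Plin2, chr4:86670060-86670309, minus strand: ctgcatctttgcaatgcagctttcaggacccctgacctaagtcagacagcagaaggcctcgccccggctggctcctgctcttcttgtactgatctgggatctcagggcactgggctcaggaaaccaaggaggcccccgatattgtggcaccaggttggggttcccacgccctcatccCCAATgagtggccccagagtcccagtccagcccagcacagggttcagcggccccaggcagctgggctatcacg
Ch25h, chr19:34475149-34475398, minus strand: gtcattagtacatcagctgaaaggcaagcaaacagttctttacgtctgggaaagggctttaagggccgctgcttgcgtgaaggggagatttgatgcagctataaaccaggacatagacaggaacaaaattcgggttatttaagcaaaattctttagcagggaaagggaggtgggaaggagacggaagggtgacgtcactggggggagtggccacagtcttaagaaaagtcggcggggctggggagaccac
Hmgcs1, chr13:119690101-119690350, plus strand: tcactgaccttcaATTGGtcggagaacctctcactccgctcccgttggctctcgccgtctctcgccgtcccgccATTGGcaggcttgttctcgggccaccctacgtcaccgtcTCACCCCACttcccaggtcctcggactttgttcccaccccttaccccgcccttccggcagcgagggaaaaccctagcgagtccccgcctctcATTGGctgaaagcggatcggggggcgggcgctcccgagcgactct
Soat1 and Plin2 each held 1 CCAAT box, starting 30 and 73 bases before the start, Ch25h held no match to either motif, and Hmgcs1 held 3 CCAAT boxes and a sterol response element 137 bases before the start. Over the 26 of the 31 genes with a region in the table, 22 held CCAAT (37.5% of the 27025 genes in the table and 33.8% of its 32851 regions did), including 14 of the 15 enzymes of synthesis with a region. TCACNCCAC was found in 1 of the 26, Hmgcs1, and in 1.22% of all genes and 1.05% of all regions. GGGCGG was found in 21 of the 26, in 35.4% of all genes and in 32.7% of all regions. These are matches of letters, not sites of binding.

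Insig2 (ENSMUSG00000003721), which encodes a brake on SREBP, was lower in MLC. MG saline libraries held 119, 118 and 106 CPM, NoTx saline libraries 137 and 129.9 CPM, and MLC saline libraries 68.2, 59.4 and 77.2 CPM. The MLC values lay below all others after saline. After seizure, NoTx libraries held 188, 155 and 121 CPM, MG libraries 103, 104, 145 and 69.8 CPM, and the 6 MLC libraries ranged from 32.3 to 99.8 CPM with a mean of 63.0 ± 23.9 (SD, n = 6). MLC libraries were all below NoTx libraries and overlapped MG libraries.

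Insig2 was 2.45-fold lower in MLC than in NoTx after seizure (log2 fold change -1.29, SE 0.30, edgeR adjusted p = 0.0103). It is 1 of 4 of the 31 genes called there, with Soat1, Plin2 and Hsd17b7, where 6.16% of all tested genes were called. Without overlap, 2 genes were higher in MLC than in NoTx after seizure, Soat1 and Ch25h (4.12% of all tested genes were), and 1 was lower, Insig2 (5.1%). The call was lost without NoTx seizure replicate 1, the highest library (adjusted p = 0.059), and when only the compared groups were fitted (0.0775). Against MG, the difference was not called after saline (adjusted p = 0.632) or after seizure (0.115), values given here because of the levels seen. Limma-voom called it after saline. After seizure it was called without the 2 libraries with 11b in their names and with the GC-content correction, and in no other alternative.

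The other sterol-sensing genes gave no call in the edgeR fit of any comparison, where at most 6.16% of all tested genes were called. Insig1, the second brake, was low, at 0.750 to 8.95 CPM after saline. After seizure it reached 36.1 CPM in MLC replicate 5 and 12.9 CPM in MLC replicate 2, with 1.06 to 10.1 CPM in the other MLC libraries and at most 5.73 CPM in MG and NoTx libraries. The factor Srebf2, which drives the synthesis genes, held 6.58 to 16.9 CPM in MLC saline and 0.947 to 5.01 CPM in MLC seizure libraries, without overlap. Srebf1, which drives mostly fatty acid genes, ranged from 0.0796 to 30.8 CPM over all libraries, and Scap, the escort of the SREBP proteins, from 3.02 to 27.6 CPM.

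None of the 18 enzymes of synthesis was called by edgeR between MLC and MG, where 1.58% of all tested genes were called after saline and 5.88% after seizure. At these shares, 0 of 18 does not set the enzymes apart from other genes. After saline, 15 of the 18 had a negative log2 fold change in MLC against MG, with a median of -0.39, beside a median of 0 and a positive share of 49.8% over all tested genes. After seizure 11 of the 18 were negative, with a median of -0.34, and 38.9% were positive, beside a median of 0 and a positive share of 48% over all tested genes. The unadjusted p fell below 0.05 in 3 of the 31 genes after saline (Soat1, Plin2 and Ch25h; 8% of all tested genes did) and in 8 of the 31 after seizure (24.9% of all tested genes did), where the enzymes were Hmgcs1 and Nsdhl, with lower fitted levels in MLC, and Idi1, with a higher one. Idi1 held 2.60 to 12.2 CPM in MG and 11.04 to 32.5 CPM in MLC seizure libraries, and DESeq2 called it there. The summed level of the 18 enzymes was 454.5 to 481 CPM in MLC saline libraries, below MG saline at 558 to 659 CPM and NoTx saline at 548 to 665 CPM. After seizure it was 295 to 532 CPM in MLC, 451 to 589 CPM in MG and 448 to 737 CPM in NoTx, with overlap.

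**Figure D2:**
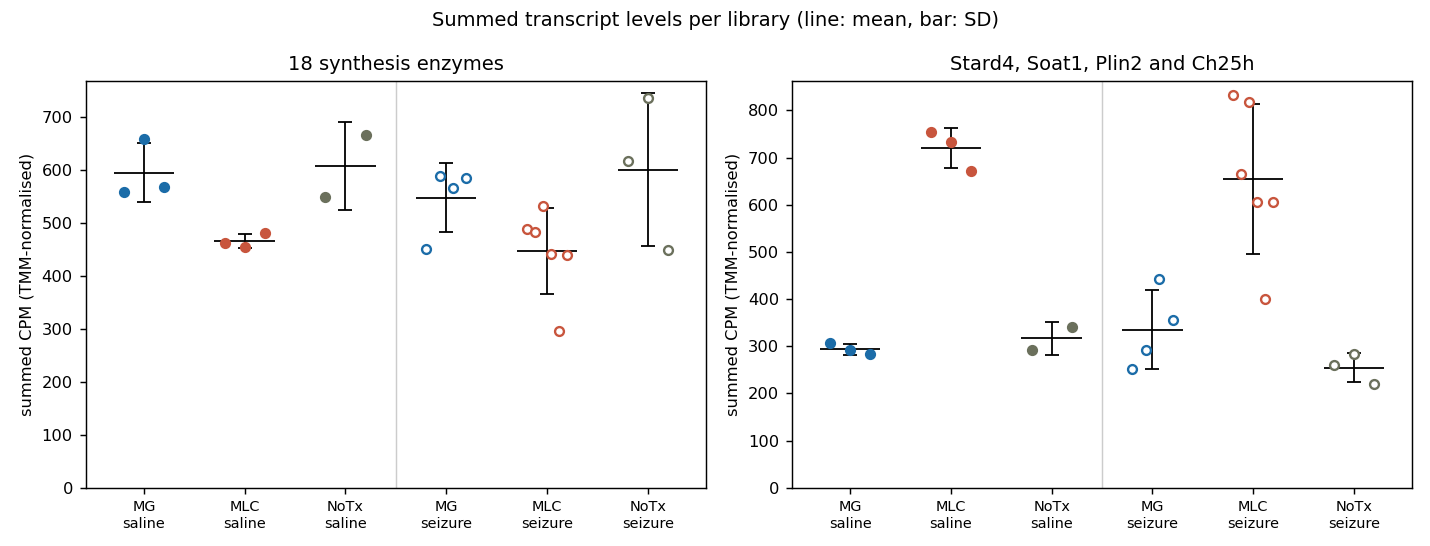
Summed CPM (vertical axes) of the 18 synthesis enzymes and of Stard4, Soat1, Plin2 and Ch25h in each library, by group (horizontal axis), with the group mean and its SD. The saline MLC libraries are low for the enzymes, at 454.5 to 481 CPM, and high for the storage genes, at 672 to 754 CPM.

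The early enzymes build mevalonate and its isoprenoid products. Acat2 makes acetoacetyl-CoA and held 54.3 to 59.8 CPM in MG saline and 44.2 to 51.3 CPM in MLC saline libraries. Hmgcs1 condenses it to HMG-CoA and held 33.0, 44.8 and 44.5 CPM in MG saline against 27.5, 33.0 and 29.0 CPM in MLC saline libraries. Fdps, which makes farnesyl diphosphate, held 34.5, 39.6 and 27.2 CPM against 17.8, 18.1 and 27.1 CPM. In these 3 genes the MG and MLC saline libraries did not overlap, although by little for Hmgcs1 and Fdps.

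Fdft1 and Nsdhl, which act on the way to squalene and after lanosterol, also did not overlap after saline. Fdft1 held 17.5, 14.9 and 19.4 CPM in MG and 3.00, 14.0 and 11.5 CPM in MLC, and Nsdhl 34.6, 35.2 and 26.3 CPM in MG and 20.5, 20.4 and 16.6 CPM in MLC. With Insig2, 6 of the 31 genes were lower without overlap in MLC than in MG after saline (12.4% of all tested genes were), and 3 were higher (10.4% were). After seizure only Ch25h was higher without overlap (2.44% of all tested genes were) and none was lower (2.96%). Part of the counts of Acat2, Hmgcs1, Fdps and Fdft1 were fractional estimates in 14 to 21 libraries, and exons of Hmgcs1, Fdps and Fdft1 overlap another gene, which makes their values uncertain. Npc1 was fractional in all 21 libraries and overlaps Rmc1. Exons of Idi1, Lss, Cyp51, Tm7sf2, Scap and Srebf1 overlap another gene as well, so the same caution holds for their values.

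The other enzymes were spread over a wide range of levels. Mvk, Pmvk, Mvd and Idi1 turn mevalonate into isopentenyl units, and over all libraries they spanned 0 to 11.8, 9.61 to 43.4, 0 to 29.5 and 2.60 to 32.5 CPM. Mvk was at 0 in 5 libraries and Mvd in 2. Sqle, the squalene epoxidase, held at most 19.0 CPM, and Lss, which closes the rings to lanosterol, at most 43.8 CPM. Cyp51, Msmo1, Ebp, Sc5d and Dhcr7 work on the sterol after lanosterol, and spanned 0.212 to 63.7, 34.9 to 134, 77.7 to 204, 0.127 to 75.1 and 1.83 to 63.7 CPM. The reductase Tm7sf2 held at most 13.7 CPM.

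Hsd17b7, a sterol ketone reductase, was the only enzyme with a call, and it rests on few reads. NoTx seizure libraries held 0, 0.0608 and 0 CPM, with 4 counts in the second and none in the others. MLC seizure replicates 1 to 6 held 24.5, 0, 10.7, 11.6, 0 and 9.96 CPM, so that 2 of the 6 libraries were at 0 like the NoTx libraries. The groups overlapped, and edgeR gave an adjusted p of 0.0414 with a fitted log2 fold change of 8.16 (SE 2.36), a size that depends on the prior count of the fit. The call was lost in 10 of 19 alternatives: without MLC seizure replicate 1, 3, 4 or 6 (adjusted p = 0.0625, 0.0513, 0.0604 and 0.0574), without NoTx seizure replicate 1, 2 or 3 (0.107, 0.0995 and 0.138), when only the compared groups were fitted (0.0934), with the replicate number as a block (0.0598), or without the 2 libraries with 11b in their names (0.0725).

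**Figure D3:**
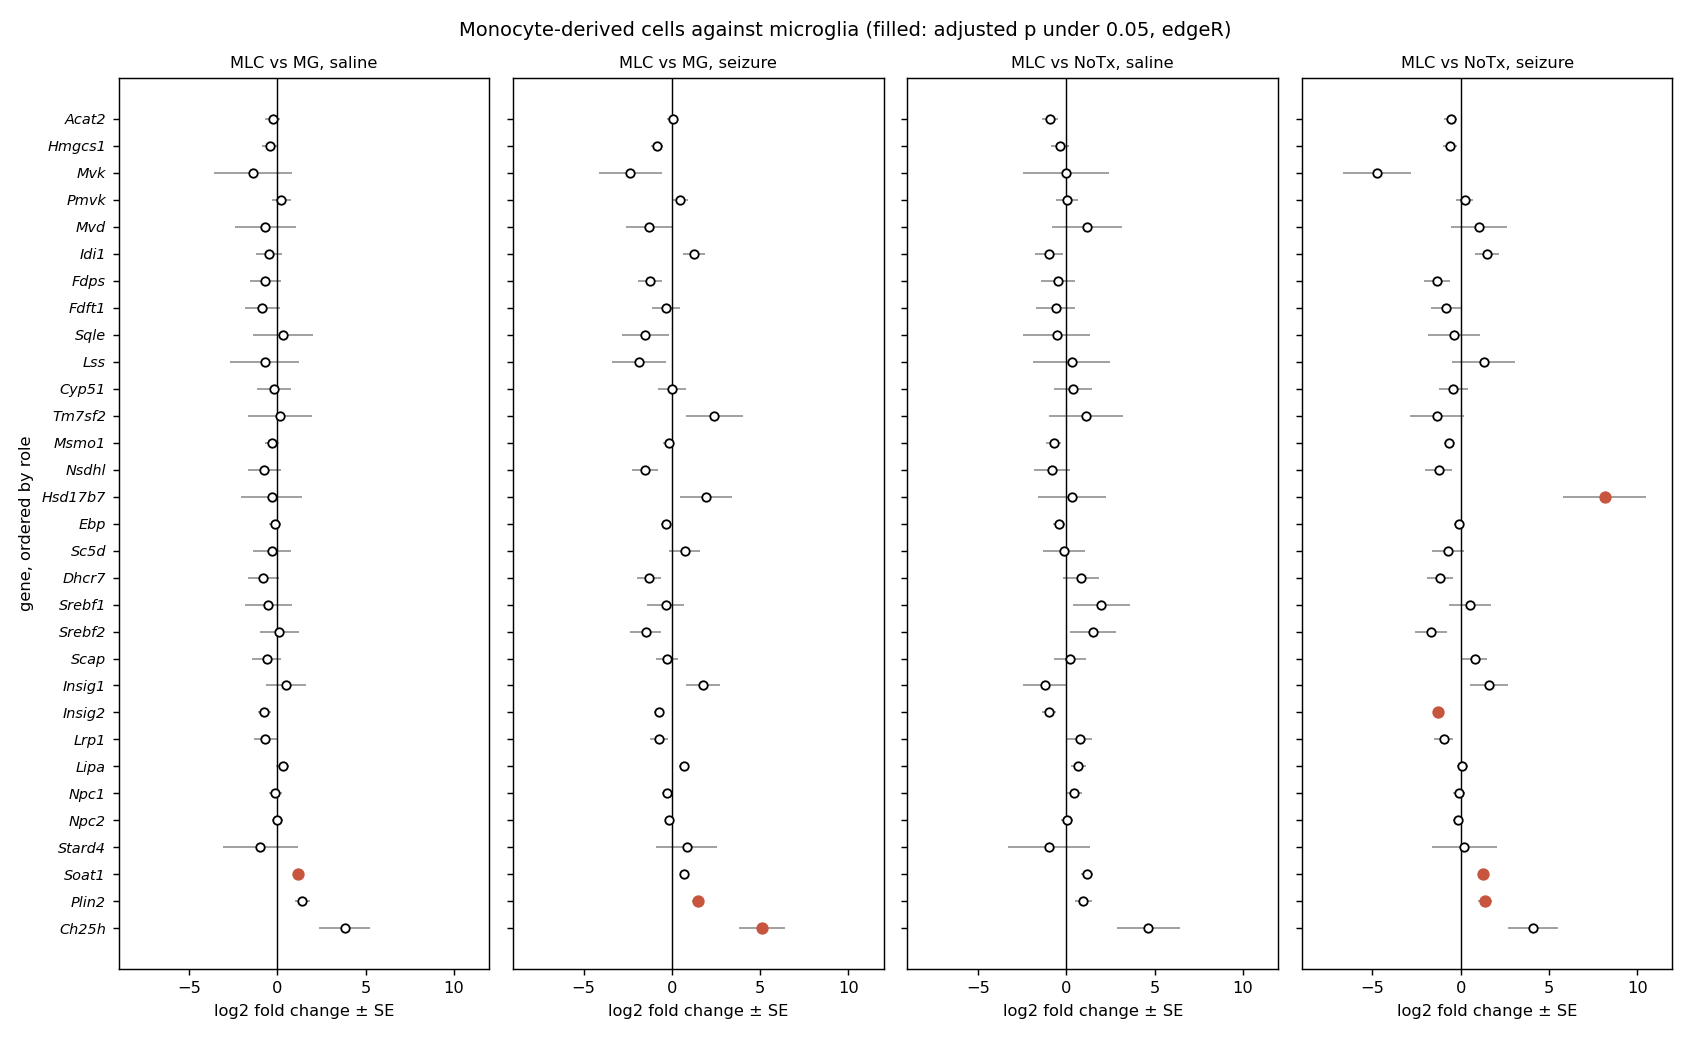
Log2 fold changes (horizontal axes) with their SE for the 31 genes (vertical axis) in 4 comparisons, MLC against MG and against NoTx, after saline and after seizure; filled red points have an adjusted p below 0.05. Soat1, Plin2 and Ch25h lie to the right in all 4 panels, and Insig2 to the left.

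Uptake and lysosomal release gave no call in the edgeR fit of any comparison, where at most 6.16% of all tested genes were called. Lrp1, an endocytic receptor for lipoprotein particles, held 51.1 to 235 CPM in MLC saline, 126 to 309 CPM in MG saline and 41.1 to 108 CPM in NoTx saline libraries. After seizure it held 19.4 to 92.1, 46.6 to 165 and 32.6 to 161 CPM in MLC, MG and NoTx libraries. Npc2, which hands cholesterol to Npc1 in the lysosome, held 642 to 1679 CPM over all libraries, and Npc1, which passes it on through the membrane, held 48.9 to 159 CPM.

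Lipa, the lysosomal lipase that frees cholesterol from its esters, held 295, 387 and 346 CPM in MG saline and 178, 233, 214 and 164 CPM in MG seizure libraries, without overlap. MLC seizure libraries ranged from 121 to 486 CPM. In MLC against MG after seizure Lipa missed the limit (adjusted p = 0.147), and it was called higher in MLC by DESeq2, with the replicate number as a block, and without MLC seizure replicate 5. NoTx seizure libraries held 257, 301 and 341.5 CPM, all above MG seizure libraries, and Lipa was the only gene of the 31 lower without overlap in MG than in NoTx after seizure (2.09% of all tested genes were), while 0 were higher (1.76%). Lipa had an adjusted p of 0.397 for seizure against saline in MG, given here because of the levels seen.

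Between MG and NoTx, edgeR called 0 of the 31 genes after saline (0.053% of all tested genes were called) and 0 after seizure (0.0742%). At an unadjusted p below 0.05, 0 of the 31 genes passed after saline (3.4% of all tested genes did) and 2 after seizure, Hsd17b7 and Soat1 (11.1% did). DESeq2 called 0 after saline (0.479% of all genes it tested) and 1 after seizure, Hsd17b7 (3.86%). Limma-voom called 0 in both (2.23% and 0.127%). The 3 with the largest fitted changes after saline were Srebf1 (log2 fold change 2.51, SE 1.66), Mvd (1.86, SE 2.05) and Insig1 (-1.68, SE 1.25), each with an edgeR adjusted p of 1. After seizure they were Hsd17b7 (6.24, SE 2.21, adjusted p = 0.369), Tm7sf2 (-3.77, SE 1.83, 0.455) and Lss (3.18, SE 2.06, 0.663). After saline 11 of the 31 genes were higher and 4 lower in MG without overlap, in 3 libraries against 2 (18.5% and 18.3% of all tested genes were). NoTx saline replicate 2 and NoTx seizure replicate 3 held summed neutrophil markers of 1573 and 649 CPM, against 59.5 CPM in NoTx saline replicate 1 and at most 15.8 CPM in the rest. Their part in these comparisons was not tested.

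In MLC against NoTx after saline, edgeR called 0 of the 31 genes (1.26% of all tested genes were called). 4 genes had an unadjusted p below 0.05: Acat2, Insig2, Soat1 and Ch25h (8.08% of all tested genes did). DESeq2 called 2, Soat1 and Ch25h (3.95% of all genes it tested), and limma-voom called 5, Acat2, Insig2, Soat1, Plin2 and Ch25h (8.17%). Without overlap 7 genes were higher and 8 lower in MLC (15.3% and 18% of all tested genes were). Those higher included Lipa, Mvd, Tm7sf2 and Srebf2, and those lower included Insig1, Idi1 and Msmo1. The largest fitted changes after Ch25h were Srebf1 (log2 fold change 1.99, SE 1.61, edgeR adjusted p = 0.987) and Srebf2 (1.51, SE 1.29, adjusted p = 1).

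Seizure against saline gave no call among the 31 genes, in a contrast that cannot be told apart from the batch. EdgeR called 0 of the 31 in MG (0.0371% of all tested genes were called), 0 in MLC (0% of them) and 0 in NoTx (0.106%). At an unadjusted p below 0.05, 1 passed in MG (Lipa; 11.8% of all tested genes did), 3 in MLC (Dhcr7, Srebf2 and Lrp1; 11.9%) and 1 in NoTx (Hsd17b7; 7.35%). DESeq2 called 0, 0 and 1 (Hsd17b7), beside 1.83%, 0.794% and 1.21% of all genes it tested. Limma-voom called 0 in each, beside 1.34%, 0.509% and 0.472%. In MLC, Srebf2 had the lower level after seizure described above (log2 fold change -2.05, SE 0.91, edgeR adjusted p = 0.389), and Dhcr7, the last reductase of synthesis, went from 15.3, 20.98 and 46.3 CPM to 1.83 to 17.6 CPM (-1.81, SE 0.74, adjusted p = 0.359). Insig1 had a fitted change of 2.01 (SE 1.09, adjusted p = 0.489).

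In MG, the largest fitted changes after seizure were in Tm7sf2 (log2 fold change -3.17, SE 1.80, edgeR adjusted p = 0.489), Hsd17b7 (-1.98, SE 1.62, 0.68) and Ch25h (-1.93, SE 1.24, 0.56). In NoTx they were Hsd17b7, with 6.90 and 5.73 CPM after saline against 4 counts in all after seizure (-7.58, SE 2.397, adjusted p = 0.647), Lss (-2.44, SE 2.18, 1) and Tm7sf2 (1.55, SE 2.15, 1). Without overlap, 0 genes were higher and 5 lower after seizure in MG (4.02% and 11.9% of all tested genes were), namely Mvk, Idi1, Tm7sf2, Hsd17b7 and Lipa. In MLC 0 were higher and 1 lower, Srebf2 (1.23% and 5.05%), and in NoTx 1 was higher, Hmgcs1, and 3 lower, Idi1, Hsd17b7 and Soat1 (4.96% and 16.2%). Whether the seizure effect differed between cell kinds was tested directly, and edgeR called 0 of the 31 genes for MLC minus MG (0% of all tested genes were called) and 0 for MG minus NoTx (0.0106%). At an unadjusted p below 0.05, 0 of the 31 passed in either (5.49% and 7.13% of all tested genes did). DESeq2 called 0 in both (0.799% and 1.2% of all genes it tested), as did limma-voom (0.0424% and 0.143%).

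The measured spread within groups was mostly wider after seizure than after saline. The groups also differ in size (MG, MLC and NoTx: 3, 3 and 2 libraries after saline, 4, 6 and 3 after seizure), in depth and in batch. The part of these in the spread was not tested. The SD of log2(CPM + 1) within a group was wider after seizure in 29 of the 31 genes in MG (median 0.281 after saline and 0.833 after seizure), 25 in MLC (0.374 and 0.782) and 25 in NoTx (0.343 and 0.793). Over all tested genes the share that was wider was 74.5% in MG (median 0.281 after saline and 0.642 after seizure), 74.3% in MLC (0.379 and 0.7) and 68% in NoTx (0.256 and 0.534). All zero counts among the 31 genes were in seizure libraries, in Mvk, Mvd, Lss, Tm7sf2, Hsd17b7, Stard4 and Ch25h.

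**Figure D4:**
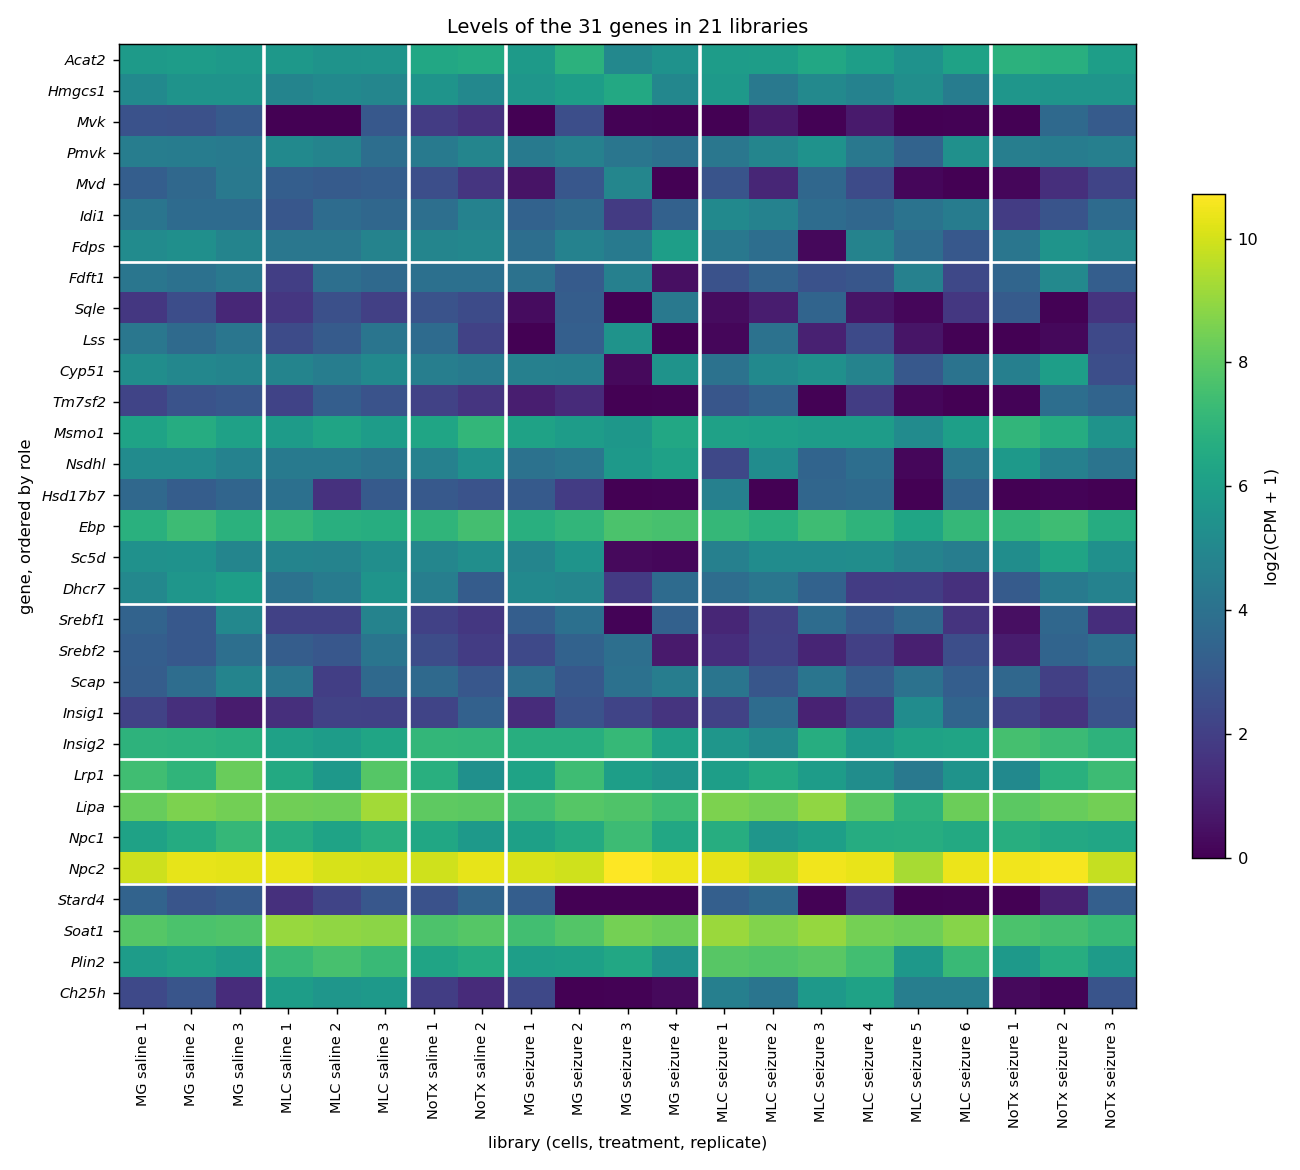
Level of the 31 genes (rows, by role) as log2(CPM + 1), shown by colour, in the 21 libraries (columns, by group). Soat1, Plin2 and Ch25h stand out in the MLC columns, and the low enzymes are patchy in the seizure columns, where 7 genes reach 0.

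Genes linked to these pathways were described from 6 lists: fatty acid synthesis by SREBP-1, the isoprenoid branch, SREBP processing, sterol transport, lipid droplets, and sterol hydroxylases with the LXR axis. They hold 65 genes, of which 62 were tested. In MLC against MG, 0 of the 62 were called after saline (1.58% of all tested genes were), and 1 higher and 2 lower after seizure (5.88% were), no more than over all genes. The higher one was Abca1, which exports cholesterol: 229 to 369 CPM in MG and 483 to 1559 CPM in MLC after seizure (log2 fold change 1.38, SE 0.30, edgeR adjusted p = 0.00599). The lower ones were Mylip, which degrades lipoprotein receptors, at 184 to 284 against 102 to 164 CPM (-0.83, SE 0.22, adjusted p = 0.0248), and Fads1, a fatty acid desaturase, at 40.1 to 88.7 against 6.09 to 31.6 CPM (-1.49, SE 0.42, adjusted p = 0.0366). Abca1 and Mylip are both known targets of LXR.

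Against NoTx, 1 of the 62 was called after saline (1.26% of all tested genes were) and 4 after seizure (6.16%), both close to the share over all genes. The one after saline was the sterol hydroxylase Cyp27a1, higher in MLC, at 135 to 172 CPM against 18.9 to 33.7 CPM (log2 fold change 2.53, SE 0.57, edgeR adjusted p = 0.0254). After seizure 2 were higher, Abca1 (1.57, SE 0.34, adjusted p = 0.00542) and the exporter Abcg1 (1.35, SE 0.37, adjusted p = 0.0294), and 2 were lower, Acly, which makes cytosolic acetyl-CoA (-2.11, SE 0.62, adjusted p = 0.0452), and Stard3, a late endosomal sterol carrier (-2.90, SE 0.84, adjusted p = 0.0414). Acly and Stard3 overlapped between the groups, with NoTx seizure libraries at 22.3 to 324 and 11.8 to 278 CPM. All other comparisons called 0 of the 62.

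Markers of other cells were detected at low levels. Summed levels of 8 markers each were 25.5 to 206 CPM for oligodendrocytes, 0.424 to 143 CPM for astrocytes and 0.0531 to 43.9 CPM for neurons over all groups. Endothelial and mural markers summed to 0.521 to 6.56 CPM in MLC libraries and 4.07 to 62.3 CPM in MG and NoTx libraries. Cldn5 was at 0 in all libraries of every group except MLC seizure. The part of these other cells in the differences of Soat1, Plin2, Ch25h and Insig2 was not tested.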

How the data were processed

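RNA from FACS-sorted brain cells was extracted with a micro kit and turned into libraries with a low-input kit, per the labels' protocols. The authors deposited a table of estimated counts, with genes in rows. Reads were trimmed with Trim Galore 0.6.7 (cutadapt 3.4), aligned with STAR 2.7.10a to GRCm39 and counted with featureCounts (Subread 2.4.5), per the submitters' processing notes. Between 28.2% and 45.4% of the values above 0 in a library were not whole within 0.001. The tool that made them fractional, the annotation and the strand of counting are not given in the sources used here. No molecular identifiers are named.

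Counts were rounded, and 18867 genes passed the filter of edgeR by group. All 21 libraries entered 1 edgeR 4.0.16 quasi-likelihood fit (R 4.3.3, TMM, robust, 6 group means), with 11 comparisons adjusted by Benjamini and Hochberg over all tested genes, limit 0.05. Batch equals treatment and could not be a covariate. SE is the absolute log2 fold change over the square root of F. The fit was tested on simulated data. Library totals ranged from 6571262 to 73841998 counts, and p-values measure only the spread between these libraries.

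Fold changes are given for every called gene and, in each comparison, for up to 3 uncalled genes with the largest change at an average log2 CPM of at least 2; exceptions are stated. Alternatives were DESeq2 1.42.0, RLE scaling, limma-voom (limma 3.58.1) with quality weights, a fit without the low-count filter, only the compared groups, the replicate number as a block, the 2 libraries with 11b left out, and each library left out. A GC-content correction, the 3 libraries with the fewest genes left out and the codes in the library names as a block were chosen after seeing the data. The genes and lists were chosen with earlier results of these data known. Start regions came from RefSeq on GRCm38.p6, not the build used for counting, and 26 of 31 genes matched.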

Additional observations from a re-analysis of the deposited data

Results flagged for a closer look

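In groups of 4 or more libraries, 62 pairs of a gene and a group were screened for a library apart from the rest, and 8 were found, 3 in MG seizure and 5 in MLC seizure. Chance alone would mark about 1 in 20 if levels within a group followed a normal distribution. Whether these CPM values do was not tested, so 8 of 62 cannot be set against that rate. The test asks whether the gap to the nearest other library is a large part of the range.

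In MG seizure libraries, Mvk reached 4.98 CPM in replicate 2, with the next at 0.0531 CPM. Stard4 reached 8.25 CPM in replicate 1, with the next at 0.0265 CPM, and Ch25h reached 4.03 CPM in the same library, with the next at 0.191 CPM. In MLC seizure libraries, Sqle reached 10.04 CPM in replicate 3 (next 2.36 CPM) and Lss 15.2 CPM in replicate 2 (next 4.31 CPM). Replicate 5, one of the libraries with the fewest genes, stood apart in 3 genes: Fdft1 at 25.0 CPM (next 9.70 CPM), Insig1 at 36.1 CPM (next 12.9 CPM) and Msmo1 as the lowest, at 34.9 CPM (next 59.6 CPM).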

How the results depend on the processing

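Of the 7 called gene changes, 129 alternative values gave 33 that missed the limit and 0 that reversed. Plin2 in MLC against MG after seizure and Soat1 in MLC against NoTx after seizure were called in every alternative run. Of the 33 uncalled changes, 16 of 545 alternative values passed the limit and 5 reversed. All 5 were Lss: in MLC against MG after seizure its log2 fold change was 0.78 with limma-voom, 0.80 with the replicate block, 0.36 without MG seizure replicate 3 and 0.12 without the 3 libraries with the fewest genes, and its seizure effect in MG minus NoTx was -0.10 without MG seizure replicate 3. With 1 library left out, these 2 values ranged from -3.42 to 0.36 and from -0.10 to 5.84.

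In MLC against MG after saline the number of the 31 genes called was 1 (1.58% of all tested genes were called). It was 2 with DESeq2 (3.74% of all genes it tested) and 4 with limma-voom (8.92%). It was 0 with no low-count filter (0.895%), 3 with only the compared groups (5.62%) and 2 with the replicate block (1.9%). After seizure it was 2 (5.88%), and 5 with DESeq2 (15.7%) and 1 with no low-count filter (3.54%). In MLC against NoTx after saline it was 0 (1.26%). It was 2 with DESeq2 (3.95%), 5 with limma-voom (8.17%), 1 with RLE scaling (1.26%) and 1 with only the compared groups (3.05%). After seizure it was 4 (6.16%). It was 6 with DESeq2 (17.4%), 5 with limma-voom (7.02%), 1 with only the compared groups (4.56%) and 2 without the libraries with 11b (4.44%). DESeq2 gave 1 in MG against NoTx after seizure (3.86%) and 1 in seizure against saline in NoTx (1.21%), where edgeR gave 0 (0.0742% and 0.106%). The cause of these differences was not tested.

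With 1 library left out, the number ranged from 0 to 1 in MLC against MG after saline (0.971% to 1.22% of all tested genes were called). It ranged from 1 to 4 after seizure (4.14% to 5.96%) and from 1 to 4 in MLC against NoTx after seizure (3.8% to 6.37%). It was 0 in all other comparisons (at most 0.808%). Between libraries with the same replicate number, the correlation of deviations ranged from -0.292 to 0.315, and no comparison had every pair above 0.1. After saline, replicate 2 had 0.19 (MLC with MG), 0.232 (MLC with NoTx) and 0.304 (MG with NoTx). Replicate 1 had -0.0199, -0.145 and -0.0445 in the same order, and replicate 3 had 0.315 (MLC with MG). Whether libraries with the same replicate number shared a mouse was not tested. The replicate block changed no other count of calls by over 1.5 times. In MLC against MG after seizure, though, its 2 calls were Plin2 and Lipa in place of Plin2 and Ch25h. The codes ending the seizure library names, tried as a block after seeing the data, left the 3 counts between seizure groups at 2, 4 and 0 (8.33%, 6.28% and 0.0477% of all tested genes). Of the 6, 5 and 3 pairs with the same code in MLC against MG, MLC against NoTx and MG against NoTx, 2, 0 and 0 had a correlation above 0.1. After seizure, RLE scaling took the median over all genes from 0 to 0.119 (log2) in MLC against MG and to 0.129 in MLC against NoTx. The share of all calls that were higher went from 42.7% to 53.3% with RLE and 62.5% with DESeq2 against MG, from 41.4% to 49.8% and 65.3% against NoTx, and after saline from 35.4% to 52.1% with DESeq2 against NoTx.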
